A study of Mus musculus with 8 samples.

Results

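Invariant natural killer T (iNKT) receptor cells were picked out of the single-cell T-cell receptor (TCR) libraries of injured mouse brains by their alpha chain. A cell was taken when at least 1 of its assembled alpha chains joined the V segment TRAV11 to the J segment TRAJ18. This held for 116 of the 2986 cells with a receptor in 4 libraries, and each of the 116 carried 1 such chain. The rule used the V and J names of the alpha chain alone, so the partner beta chain, the clone sizes and the molecule counts were free to differ, while most bases of the alpha CDR3 come from those segments. The cells are called TRAV11-TRAJ18 cells below, since their transcriptomes and their binding to CD1d were not analysed here.

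The libraries came from male C57BL/6 mice (labelled B6) that received controlled cortical impact, an open-skull traumatic brain injury (TBI), at 13 to 15 weeks of age (YTBI) or 80 to 82 weeks of age (ATBI). Mice were given 300 µg of an antibody to CD49d (aCD49d Ab), the alpha 4 integrin chain that T cells use to enter tissue, or its isotype control, after injury and every 2 weeks. CD45+ cells were sorted from brains at 2 months post TBI, and each library pooled the cells of 2 mice, so YTBI_Isotype, YTBI_aCD49d, ATBI_Isotype and ATBI_aCD49d had 1 library each and all mice were injured. Pooled mice cannot be told apart, and fewer cells of a type cannot be told apart from a larger number of other cells in a share.

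iNKT cells are T cells with a semi-invariant receptor. In mice, nearly all use an alpha chain joining TRAV11 (older name V alpha 14) to TRAJ18 with a CDR3 of fixed length, paired with a limited set of beta V segments: the TRBV13 family (V beta 8), TRBV29 (V beta 7) and TRBV1 (V beta 2). The receptor recognises lipids presented by CD1d rather than peptides, the alpha chain supplies most of the contacts with lipid and CD1d, and the beta CDR3 is free to vary. iNKT cells leave the thymus already primed to release cytokines within hours, and they reside in liver, spleen and other tissues.

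The alpha CDR3, the stretch that spans the V-J join, was 45 bases long in all 116 chains and encoded 15 residues. The 10 distinct nucleotide sequences found differed only in codon 4. The 5 sequences present in at least 2 libraries are shown because they make up all but 5 of the 116 chains, each from 5′ to 3′ with codon 4 in capitals.
GGC sequence: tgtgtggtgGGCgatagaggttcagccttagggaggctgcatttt
GGA sequence: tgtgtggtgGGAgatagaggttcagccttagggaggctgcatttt
GGG sequence: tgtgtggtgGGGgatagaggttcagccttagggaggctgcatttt
GGT sequence: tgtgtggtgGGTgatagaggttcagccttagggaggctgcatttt
GCC sequence: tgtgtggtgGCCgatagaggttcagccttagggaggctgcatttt

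The GGC sequence was found in 39 cells, with 4 and 12 in YTBI_Isotype and YTBI_aCD49d and 9 and 14 in ATBI_Isotype and ATBI_aCD49d. The GGA sequence was found in 32 cells (7, 7, 7 and 11 in the same order of libraries). The GGG sequence was also found in 32 cells (6, 12, 5 and 9). These 3 sequences occurred in all 4 libraries, so separate pools of mice held the same alpha rearrangement base for base. The GGT sequence was found in 5 cells, 1 in YTBI_Isotype and 4 in ATBI_aCD49d. The GCC sequence was found in 3 cells, 1 in YTBI_aCD49d and 2 in ATBI_aCD49d. The other 5 sequences were found in 1 cell each, all in the young libraries.

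Codon 4 encoded glycine in 108 of the 116 chains, by all 4 glycine codons. It encoded alanine in 5 chains, valine in 2 and proline in 1. The 8 chains without glycine came from YTBI_Isotype (2), YTBI_aCD49d (4) and ATBI_aCD49d (2), and ATBI_Isotype held none among its 21 chains, which allows a share of up to 14.3%.

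The germline ends of both segments show where the codon lies. They were read from the GRCm38 assembly, with the V segment from the first CDR3 codon to its end and the J segment from its start to the last CDR3 codon.
TRAV11 end: tgtgtggtgggcg
TRAJ18 start: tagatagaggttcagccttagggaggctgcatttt

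The GGC sequence can be read from TRAV11 through its 13 germline bases and then from TRAJ18, and the GGA sequence takes the last base of codon 4 from TRAJ18. Neither holds a base that matches neither segment. In all, 72 of the 116 TRAV11-TRAJ18 chains held 0 such non-germline bases, 38 held 1, 5 held 2 and 1 held 3. Alpha chains of other cells held a median of 2 or 3 in every library. Counting each distinct rearrangement once, the mean was 0.500 for TRAV11-TRAJ18 chains and 2.64 for other alpha chains in YTBI_Isotype, 1.43 and 2.78 in YTBI_aCD49d, 0.333 and 2.75 in ATBI_Isotype, and 0.800 and 2.70 in ATBI_aCD49d. The mean was lower for TRAV11-TRAJ18 chains in 4 of 4 libraries, over only 3 to 7 distinct rearrangements per library. The same 3 sequences were among them in every library, so the 4 means were not independent. A base added at random can match a segment by chance and was then counted as germline. A CDR3 of 15 residues, shared by all TRAV11-TRAJ18 chains, was found in 11.8% to 14.7% of the other alpha chains, but in 11 of the 22 chains that joined TRAJ18 to another V segment.

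**Figure D1:**
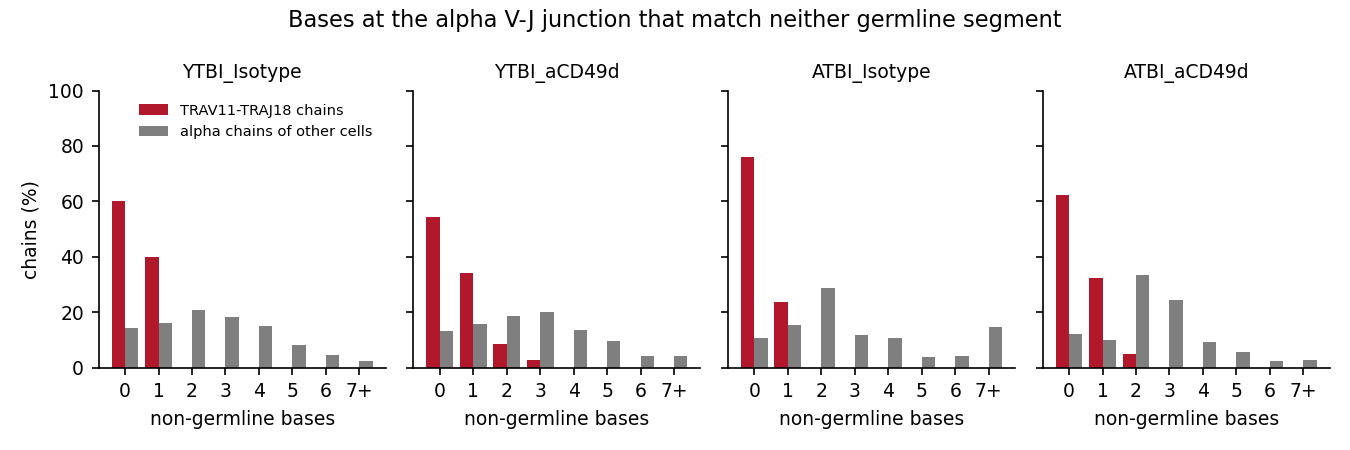
Percent of alpha chains (y axis) by the number of CDR3 bases that match neither germline segment (x axis, 7+ for 7 or more), for TRAV11-TRAJ18 chains (red) and alpha chains of other cells (grey), 1 panel per library. Of the 116 TRAV11-TRAJ18 chains, 72 lie at 0 and 38 at 1, and the other chains peak at 2 or 3.

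In GENCODE vM21 on GRCm38, Trav11 lies at chr14:53519303-53519859 and Traj18 at chr14:54200777-54200842, both on the plus strand and 680917 bases apart in the alpha locus. A near-identical copy, Trav11d, lies at chr14:52824357-52824912. All 116 chains were identical to the V exon of both copies over the 267 bases compared before CDR3, so the copy of origin cannot be told apart, and no chain in the tables carried the name TRAV11D or TRAV11N.

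The chains closest to the rule were few. TRAV11 was joined to another J segment in 13 chains and TRAJ18 to another V segment in 22, none of them in a TRAV11-TRAJ18 cell. Of the 13, 11 were a single rearrangement to TRAJ17 in ATBI_aCD49d, with a CDR3 of 13 residues and the beta V segment TRBV12-1, in a deposited clonotype of 18 cells. The 22 TRAJ18 chains had 19 distinct CDR3 sequences. They were spread as 5 and 2 in YTBI_Isotype and YTBI_aCD49d and 8 and 7 in ATBI_Isotype and ATBI_aCD49d. The other semi-invariant receptor looked for, TRAV1-TRAJ33 of mucosal-associated invariant T (MAIT) cells, was found in 2 cells of YTBI_aCD49d and 1 of ATBI_Isotype. The tables held no gamma, delta or immunoglobulin chain. Whether these TCR libraries could capture such chains was not tested, so this does not show that gamma delta T cells or B cells were absent.

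TRAV11-TRAJ18 cells made up 9.22% of the cells with an alpha chain in YTBI_Isotype (20 of 217, exact Clopper-Pearson 95% interval 5.72 to 13.9%) and 7.74% in YTBI_aCD49d (35 of 452, 5.45 to 10.6%). They made up 3.03% in ATBI_Isotype (21 of 692, 1.89 to 4.60%) and 4.27% in ATBI_aCD49d (40 of 937, 3.07 to 5.77%). The share was therefore higher in both young libraries than in either aged one. All intervals cover counting error only and take cells as independent, although cells of 1 clone are not. Each group had 1 library and the spread between mice was not measured.

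The share under isotype was lower in the aged library by a difference of -6.18 percentage points (Newcombe 95% interval -11.0 to -2.35), and under aCD49d Ab by -3.47 points (-6.58 to -0.737). The aged libraries also held much larger clones of other T cells. The largest had 109 cells in ATBI_Isotype and 101 in ATBI_aCD49d, against 7 and 33 in the young libraries. Their part in the lower aged share was not tested. Counted as clones with both chains, so that each clone entered once, TRAV11-TRAJ18 clones made up 10.9% of YTBI_Isotype (20 of 183), 9.09% of YTBI_aCD49d (33 of 363), 6.34% of ATBI_Isotype (21 of 331) and 8.24% of ATBI_aCD49d (37 of 449). As single cells with both chains, with no collapsing, they made up 9.66%, 7.55%, 3.12% and 4.15%. The age difference in clones was -4.58 points under isotype (-10.5 to 0.630) and -0.850 points under aCD49d Ab (-5.03 to 3.17), and both intervals included 0.

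Among cells with an alpha chain, the interval of the difference between treated and isotype libraries included 0 within either age. The difference aCD49d minus isotype was 1.23 points in aged mice (-0.741 to 3.12) and -1.47 points in young mice (-6.66 to 3.04). With all cells with a receptor as the denominator, the aged difference was 1.51 points (0.0451 to 2.99), an interval that excluded 0. The share of cells with an alpha chain was 67.6% in ATBI_Isotype and 83.4% in ATBI_aCD49d. The part of alpha chain recovery in the difference of 1.51 points was not tested.

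**Figure D2:**
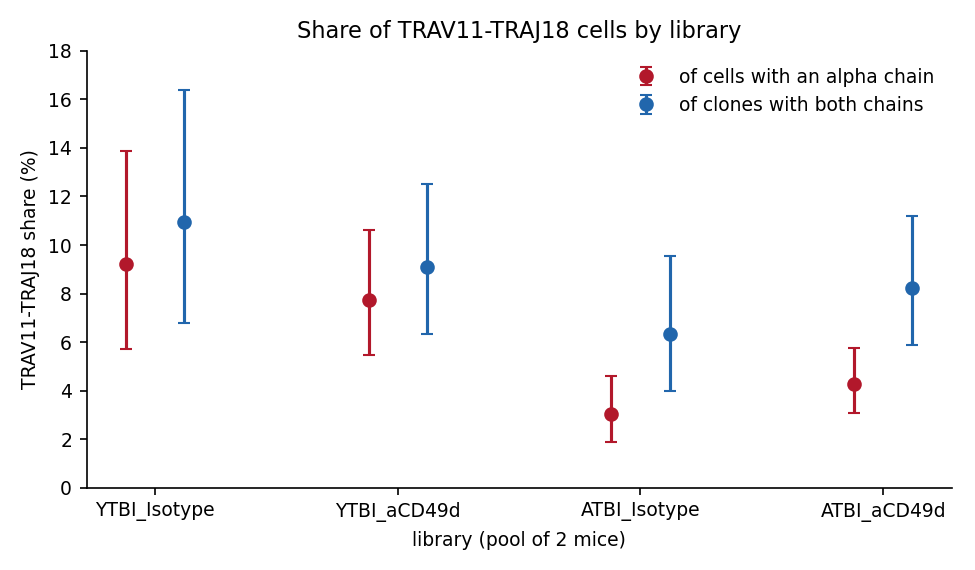
TRAV11-TRAJ18 share in percent (y axis) in each library (x axis), of cells with an alpha chain (red) and of clones with both chains (blue). Points are shares and bars exact Clopper-Pearson 95% intervals for counting error. The aged libraries sit at 3.03% and 4.27% of cells and at 6.34% and 8.24% of clones.

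A beta chain was found in 112 of the 116 cells, with 114 beta chains in all. The V segments of the beta chains came mostly from the 3 families known for iNKT receptors. Of the cells with a beta chain, the listed segments (TRBV13-1, TRBV13-2, TRBV13-3, TRBV29, TRBV1 and the joint name TRBV12-2+TRBV13-2) were found in 18 of 20 YTBI_Isotype cells, 31 of 33 YTBI_aCD49d cells, 21 of 21 ATBI_Isotype cells and 35 of 38 ATBI_aCD49d cells, that is 90.0%, 93.9%, 100% and 92.1%. Among other cells with both chains the same segments made up 36.4%, 30.2%, 22.7% and 33.6% in the same order. The difference averaged 63.3 percentage points (SD 10.2 over 4 libraries) and was positive in 4 of 4. With the joint name counted outside the list it averaged 21.4 points. The exact two-sided sign-flip permutation p of the first was 0.125, the smallest that 4 libraries can give, and 0.375 after Benjamini-Hochberg adjustment over 6 measures. The mean of non-germline alpha bases over distinct rearrangements was tested the same way outside this adjustment (mean difference -1.95 bases, exact sign-flip permutation p = 0.125). No conclusion is drawn from that test, since the rule chose these alpha chains. The same 3 alpha sequences also recurred in all 4 libraries, so its 4 differences were not independent. The list was taken from what is known of iNKT receptors, with earlier results of these data known.

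**Figure D3:**
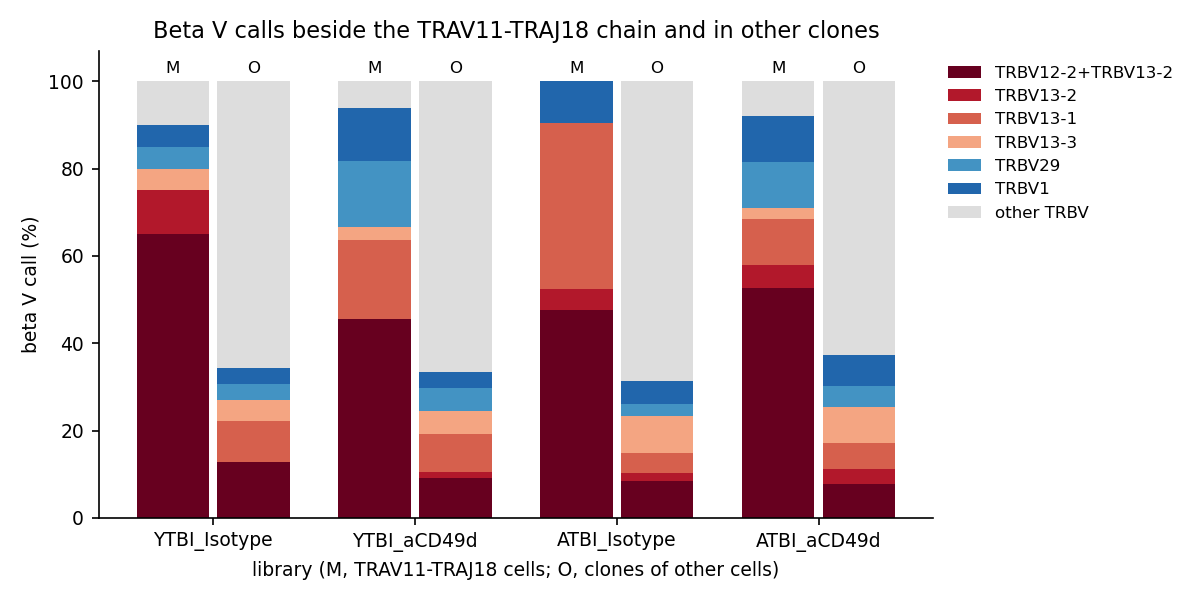
Percent of beta chains by V call (y axis, stacked to 100%) in each library (x axis), for TRAV11-TRAJ18 cells (M) and for clones of other cells with both chains, each clone counted once (O). The listed segments, in red and blue, fill 90.0% to 100% of the M bars and 31.3% to 37.4% of the O bars.

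The leading call was the joint name TRBV12-2+TRBV13-2, which lists both segments. How this name arises was not tested. It was found in 58 cells, with 13 and 15 in YTBI_Isotype and YTBI_aCD49d and 10 and 20 in ATBI_Isotype and ATBI_aCD49d. Trbv12-2 lies at chr6:41118851-41119364 and Trbv13-2 at chr6:41121396-41121832, separated by 2031 bases. All 58 joint chains were identical to the Trbv13-2 exon over the 270 bases compared and differed from Trbv12-2 at 151. The joint-call chains of other cells had the same property, with 325 of 329 identical to Trbv13-2 and the remaining 4 differing at 1 base. The start of CDR3 also separates the segments, shown as germline ends with the bases that differ in capitals.
TRBV13-2 end: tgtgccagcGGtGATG
TRBV12-2 end: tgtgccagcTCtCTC

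All 58 joint chains followed the TRBV13-2 end further than the TRBV12-2 end. Their contigs had a median length of 577.5 bases, against 530 for the 5 TRAV11-TRAJ18 cells called TRBV13-2 alone. With both names read as TRBV13-2 it was the partner in 63 of the 112 cells, or 56.2% (46.6 to 65.6%). It was 75% for YTBI_Isotype, 45.5% for YTBI_aCD49d, 52.4% for ATBI_Isotype and 57.9% for ATBI_aCD49d, and in other clones 12.9%, 10.6%, 10.3% and 11.2%. The joint name stood for 92.1% of the TRBV13-2 chains of TRAV11-TRAJ18 cells and for 87.5% of those of other cells, so most TRBV13-2 chains of either kind of cell had the joint name. By alpha sequence, TRBV13-2 under either name was the partner in 26 of 37 cells with GGC, 17 of 32 with GGA and 14 of 31 with GGG at codon 4.

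The joint name affects the deposited evidence column for iNKT receptors, which marks clonotypes by segment. All 116 cells stood in clonotypes marked for their alpha chain. Among the 112 cells with a beta chain, 26 stood in clonotypes marked for both chains: 11 with TRBV1, 10 with TRBV29 and 5 with TRBV13-2. None of the 58 cells with the joint name was marked for its beta chain. With the joint name read as TRBV13-2 the number marked for both would be 84 of 112, or 75%. The column for MAIT receptors marked the beta chain in the clonotypes of 31 TRAV11-TRAJ18 cells, 18 of them with TRBV13-1, which the iNKT column did not mark, and 5 with TRBV13-2, which both columns marked. The MAIT column also marked none of the 58 cells with the joint name. Reading that name as TRBV13-2 would thus add the same 58 cells to the beta marks of both columns.

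TRBV13-1 was the next partner, in 18 cells. Among TRAV11-TRAJ18 cells it was absent as the main beta chain from the 20 cells of YTBI_Isotype, which allows a share of up to 15%, and was found in 6 of 33 in YTBI_aCD49d, 8 of 21 in ATBI_Isotype and 4 of 38 in ATBI_aCD49d. Other cells used it in 9.09%, 7.67%, 2.30% and 4.10% in the same order. TRAV11-TRAJ18 cells thus lay below other cells in YTBI_Isotype, where the limit of 15% covers the value of other cells, and above them elsewhere. Between the isotype libraries the share of TRAV11-TRAJ18 cells was 38.1 points higher in the aged one (12 to 61.6), whereas that of other cells was lower there. Between the aged libraries the share of TRAV11-TRAJ18 cells was lower under aCD49d Ab (difference -27.6 points, -52.2 to -3.0). The other two contrasts went the opposite way with intervals that included 0: aCD49d minus isotype in young mice was 18.2 points (-2.05 to 35.5), and aged minus young under aCD49d Ab was -7.66 points (-26.5 to 10.5). This segment was singled out after its values were seen, with no test over libraries.

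TRBV1 was found in 11 cells (1, 4, 2 and 4 in the order YTBI_Isotype, YTBI_aCD49d, ATBI_Isotype and ATBI_aCD49d). TRBV29 was found in 10 cells (1, 5, 0 and 4). In the same order, TRBV1 made up 5%, 12.1%, 9.52% and 10.5% of TRAV11-TRAJ18 cells, against 3.21%, 3.47%, 6.91% and 5.24% of other cells. TRBV29 made up 5%, 15.2%, 0% and 10.5%, against 4.28%, 4.21%, 1.54% and 2.51%. TRBV13-3 was found in 3 cells, in every library but ATBI_Isotype. TRBV13-3 thus made up 0 to 5% of TRAV11-TRAJ18 cells with a beta chain, and 4.91% to 8.39% of other clones.

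The 7 cells outside the list used TRBV17 (2), TRBV19 (2), TRBV2, TRBV3 and TRBV31 (1 each). In 2 of these 7, the only TRAV11-TRAJ18 cells with 2 beta chains, the second chain used TRBV13-1. The cell in YTBI_Isotype had 12 UMIs for TRBV3 and 9 for TRBV13-1. The cell in ATBI_aCD49d had 11 UMIs for TRBV2 and 2 for TRBV13-1. A unique molecular identifier (UMI) counts 1 captured transcript molecule.

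The beta J segments, which the rule did not use, were spread over 12 names. TRBJ1-1 was found in 18 cells, TRBJ2-5 in 15, TRBJ1-2 and TRBJ2-1 in 12 each, TRBJ1-4 in 10, TRBJ2-3 and TRBJ2-7 in 9 each, TRBJ2-4 in 8, TRBJ1-3, TRBJ1-5 and TRBJ2-2 in 5 each and TRBJ1-6 in 4. In the order YTBI_Isotype, YTBI_aCD49d, ATBI_Isotype and ATBI_aCD49d, TRBJ1-1 made up 0%, 21.2%, 19.0% and 18.4% of TRAV11-TRAJ18 cells. In other cells it made up 6.42%, 6.68%, 5.22% and 15.9%. TRBJ2-7 made up 0%, 15.2%, 4.76% and 7.89%, against 20.9%, 22.0%, 16.1% and 26.9% of other cells. These differences were not tested. The constant segment followed the J cluster: all 54 cells with a TRBJ1 segment had TRBC1 and 57 of the 58 with a TRBJ2 segment had TRBC2, with no C segment given for the last.

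The TRBJ1 cluster was used by 30.0% of TRAV11-TRAJ18 cells of YTBI_Isotype (11.9 to 54.3%), 42.4% of YTBI_aCD49d (25.5 to 60.8%), 76.2% of ATBI_Isotype (52.8 to 91.8%) and 47.4% of ATBI_aCD49d (31.0 to 64.2%). Other cells used it in 26.7%, 31.2%, 57.8% and 28.7%, and other clones in 28.8%, 31.8%, 40.6% and 35.7%. In ATBI_Isotype the value of other cells lay inside the interval of the TRAV11-TRAJ18 cells and that of other clones outside it. In ATBI_aCD49d the reverse held, and in the young libraries both values lay inside. The value in ATBI_Isotype, 16 of 21 cells, was the highest, and no cell there used TRBJ1-3, TRBJ2-1, TRBJ2-4 or TRBJ2-5. These shares were described after their values were seen.

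The beta CDR3 averaged 15.1 residues in YTBI_Isotype (SD 1.45, n = 20 cells), 14.2 in YTBI_aCD49d (SD 1.01, n = 33), 14.9 in ATBI_Isotype (SD 1.31, n = 21) and 14.8 in ATBI_aCD49d (SD 1.65, n = 38). In other clones the means were 14.0, 14.0, 13.8 and 14.0. The beta CDR3 of TRAV11-TRAJ18 cells ranged from 10 to 19 residues, whereas their alpha CDR3 had the same length in every cell. The mean was longer in TRAV11-TRAJ18 cells in 4 of 4 libraries, with no test. The median was 15 against 14 residues in other cells of YTBI_Isotype and ATBI_Isotype. It was equal in YTBI_aCD49d (14) and ATBI_aCD49d (15).

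The beta chains were nearly all different. The 114 beta chains had 113 distinct CDR3 nucleotide sequences, and none occurred in more than 1 library, either as nucleotides or as residues. Cells with the same alpha sequence in 4 libraries thus carried separate beta rearrangements. Only 1 pair of cells shared a beta chain, both in ATBI_aCD49d, with the joint V name and TRBJ1-6. It is shown because it is the only clone of these cells seen on both chains, with the leading bases that match the TRBV13-2 end in capitals.
Pair in ATBI_aCD49d: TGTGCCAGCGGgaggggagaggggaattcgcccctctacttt

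Both cells of the pair carried the GGA alpha sequence. A further deposited clonotype of 2 in ATBI_aCD49d joined a cell with TRBV13-2 to a cell without a beta chain, both with the GCC alpha sequence, which encodes alanine at codon 4. The beta chain of the second cell was not seen, so its membership rests on the alpha chain.

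Outside the 116 cells, 4 cells carried the beta CDR3 of a TRAV11-TRAJ18 cell in the same library. All 4 had a beta chain and no alpha chain, so the rule could not take them. Their sequences are shown because these are the beta chains seen in more than 1 cell beside the pair, with leading bases that match the TRBV13-2 end in capitals; the TRBV1 chain is left in lower case.
ATBI_Isotype, TRBV12-2+TRBV13-2 with TRBJ2-2: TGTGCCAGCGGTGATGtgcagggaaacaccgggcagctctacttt
ATBI_Isotype, TRBV1 with TRBJ1-6: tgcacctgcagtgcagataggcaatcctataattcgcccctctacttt
ATBI_aCD49d, TRBV12-2+TRBV13-2 with TRBJ1-1: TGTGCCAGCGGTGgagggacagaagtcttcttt
YTBI_Isotype, TRBV12-2+TRBV13-2 with TRBJ1-3: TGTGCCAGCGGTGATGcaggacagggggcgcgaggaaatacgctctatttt

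For 3 of the 4, the deposited clonotype already joined the cell to its TRAV11-TRAJ18 partner. The exception was in YTBI_Isotype, where the same CDR3 stood in separate deposited clonotypes. There the partner was called TRBV13-2 and the cell without an alpha chain had the joint name. The cause of the split was not tested.

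By deposited clonotype, 109 of the 116 cells were alone and 7 were in a clonotype of 2, the largest size seen. Of cells with both chains, the clonal share (cells in a clonotype of at least 2 cells) was 0 of 20 in YTBI_Isotype, which allows a share of up to 15%, and 0 of 33 in YTBI_aCD49d, which allows up to 9.09%. It was 9.52% in ATBI_Isotype (2 of 21, 1.17 to 30.4%) and 10.5% in ATBI_aCD49d (4 of 38, 2.94 to 24.8%). Of these 6 cells, 2 were the pair, 3 were joined to a cell with a beta chain alone and 1 to a cell with an alpha chain alone. Other cells with both chains were clonal in 21.4%, 27.5%, 64.1% and 61.0% in the same order of libraries.

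TRAV11-TRAJ18 cells were less clonal in 4 of 4 libraries, with a mean difference of -38.5 percentage points (SD 16.5 over 4 libraries). The exact two-sided sign-flip permutation p was 0.125, the smallest 4 libraries can give, and 0.375 after adjustment over 6 measures. In each library the Newcombe interval of the difference lay below 0, from -28.0 to -3.63 points in YTBI_Isotype, -32.1 to -16.1 in YTBI_aCD49d, -63.7 to -33.3 in ATBI_Isotype and -58.8 to -35.9 in ATBI_aCD49d. Clonotypes of other cells reached 109 cells, and the gap was wider in the aged libraries, where more of the other cells were clonal. Whether the gap differs with age was not tested.

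**Figure D4:**
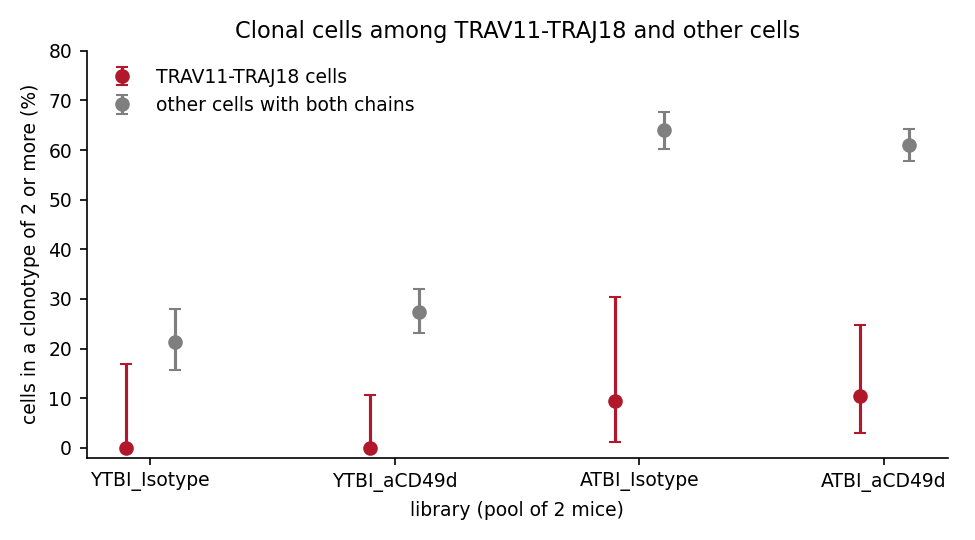
Percent of cells with both chains that were in a clonotype of 2 or more cells (y axis) in each library (x axis), for TRAV11-TRAJ18 cells (red) and other cells (grey). Points are shares and bars exact Clopper-Pearson 95% intervals for counting error. The red points lie at 0 to 10.5% and the grey points at 21.4% to 64.1%. For the red points at 0, the bars reach 16.8% in YTBI_Isotype and 10.6% in YTBI_aCD49d.

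A second alpha chain, which a T cell can carry because both alpha loci rearrange, was found in 4 of the 116 cells. All 4 were in isotype libraries and all 4 second chains differed. In YTBI_Isotype they were TRAV13N-3 with TRAJ28 (2 UMIs beside 1 UMI for the TRAV11-TRAJ18 chain) and TRAV4D-3 with TRAJ17 (8 UMIs beside 2). In ATBI_Isotype they were TRAV15D-1-DV6D-1 with TRAJ30 (2 UMIs beside 2) and TRAV3D-3 with TRAJ35 (2 UMIs beside 3). The TRAV11-TRAJ18 chain was thus not the more abundant alpha chain in 3 of these 4 cells. All 4 had TRBV13-2 or the joint name as the beta chain.

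The share with a second alpha chain was 10.0% in YTBI_Isotype (2 of 20, 1.23 to 31.7%) and 9.52% in ATBI_Isotype (2 of 21, 1.17 to 30.4%). It was 0 of 35 in YTBI_aCD49d and 0 of 40 in ATBI_aCD49d, which allows shares of up to 8.57% and 7.5%. In other cells with an alpha chain it was 7.11%, 3.28%, 8.39% and 5.13% in YTBI_Isotype, ATBI_Isotype, YTBI_aCD49d and ATBI_aCD49d. The mean difference was -1.10 points (SD 6.81 over 4 libraries, exact sign-flip permutation p = 0.875, adjusted p = 0.875), within the spread between libraries.

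A beta chain was found beside the alpha chain in 20 of 20 TRAV11-TRAJ18 cells of YTBI_Isotype, 33 of 35 of YTBI_aCD49d, 21 of 21 of ATBI_Isotype and 38 of 40 of ATBI_aCD49d. Other cells with an alpha chain had a beta chain in 94.9%, 96.9%, 97.0% and 97.9%. The mean difference was 0.645 points (SD 4.0, exact permutation p = 0.75, adjusted p = 0.875), with 2 libraries in each direction.

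The defining alpha chain rested on few molecules. Its UMI count had a lowest, median and highest value of 1, 3 and 12 for YTBI_Isotype, 1, 3 and 10 for YTBI_aCD49d, 1, 2 and 7 for ATBI_Isotype and 1, 4 and 32 for ATBI_aCD49d. Medians of other cells, taken on their alpha chain with most UMIs, were 4, 3, 3 and 4. The comparison is thus not like for like in cells with more than 1 alpha chain. The alpha chain rested on 1 UMI in 20 of the 116 cells, which was 38.1% of the cells in ATBI_Isotype and 10.0% to 14.3% elsewhere, against 21.9% and 8.92% to 11.0% of other cells. The difference in medians was below 0 in 2 libraries and 0 in the other two, and averaged -0.500 UMIs (SD 0.577, exact permutation p = 0.5, adjusted p = 0.75). On means in place of medians it averaged -0.887 UMIs (exact permutation p = 0.25). Median reads behind the alpha chain were lower in 4 of 4 libraries, at 8776 against 10714, 9192 against 10059, 5592 against 8315 and 9875 against 10866 (mean difference -1630 reads, exact permutation p = 0.125, the smallest possible).

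The beta chains had a lowest, median and highest UMI count of 4, 10.5 and 20 for YTBI_Isotype, 1, 10 and 32 for YTBI_aCD49d, 1, 9 and 25 for ATBI_Isotype and 1, 11 and 42 for ATBI_aCD49d. Medians of other cells were 11, 9, 7 and 11. The difference in medians was above 0 in 2 libraries and below 0 in 1, and averaged 0.625 UMIs (SD 1.11, exact permutation p = 0.5, adjusted p = 0.75). This average was 0.167 without ATBI_Isotype, 1.0 without YTBI_Isotype and 0.125 with at least 2 UMIs for each alpha chain. On means in place of medians it was 0.645 UMIs (exact permutation p = 0.625). Median reads behind the beta chain were 45278 against 40764, 45814 against 39864, 43026 against 30523 and, lower only in ATBI_aCD49d, 35807 against 38406 (mean difference 5092 reads, exact permutation p = 0.25). Within TRAV11-TRAJ18 cells the beta chain had more molecules than the alpha chain in the median cell, by a ratio of 3.83, 3, 6 and 2.69 in YTBI_Isotype, YTBI_aCD49d, ATBI_Isotype and ATBI_aCD49d, and other cells had 2.71, 2.50, 2.50 and 2.67.

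**Figure D5:**
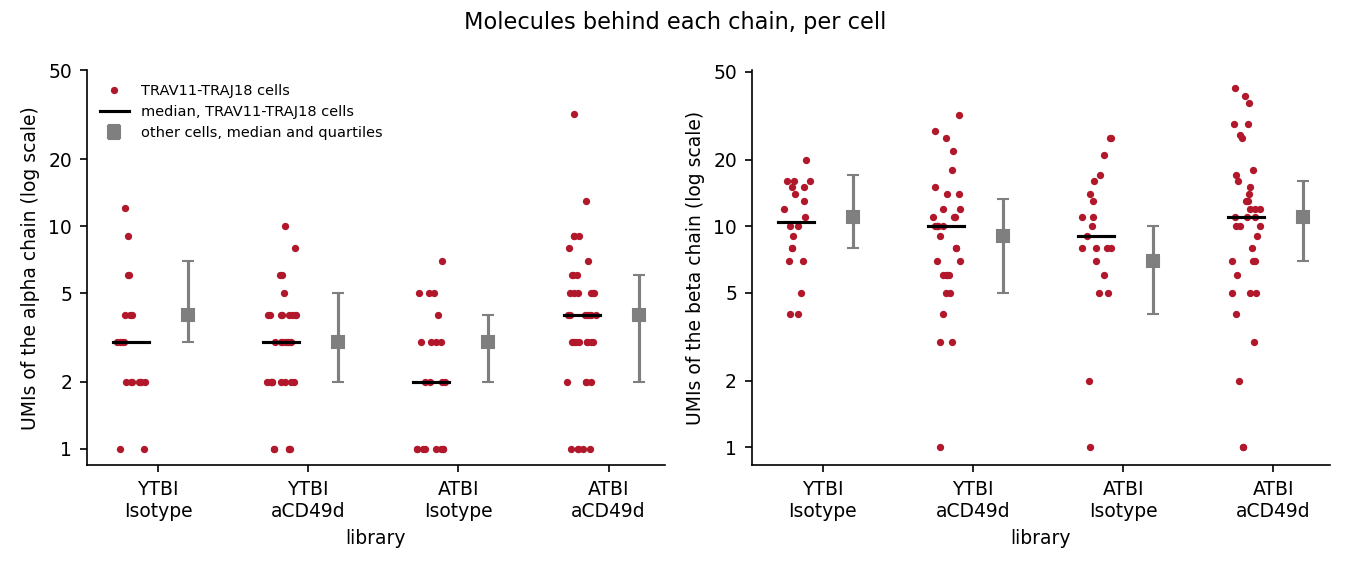
UMIs per cell (y axis, log scale) of the defining alpha chain (left) and of the beta chain (right) in each library (x axis). Red points are TRAV11-TRAJ18 cells with their median as a black line, and grey squares with bars are the median and quartiles of other cells. The medians of TRAV11-TRAJ18 cells lie at 2 to 4 UMIs for alpha and 9 to 11 for beta, and those of other cells at 3 to 4 and 7 to 11.

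The libraries differed in depth. They held 262, 577, 1024 and 1123 cells with a receptor in YTBI_Isotype, YTBI_aCD49d, ATBI_Isotype and ATBI_aCD49d, with a median of 9 to 15 TCR UMIs per cell. The lowest was ATBI_Isotype, which also had the fewest molecules behind the TRAV11-TRAJ18 chain. When each alpha chain had to have at least 2 UMIs, the share of TRAV11-TRAJ18 cells there was 2.42% in place of 3.03%. A single barcode was found in more than 1 library, and it was not a TRAV11-TRAJ18 cell.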

How the data were processed

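Single-cell TCR libraries were made by the authors from CD45+ brain cells with 10x Genomics immune profiling and processed with Cell Ranger 7.2.0 (submitters' processing notes) against mm10. The deposited contig tables give UMIs and reads behind each chain as counts. The deposited clonotype tables give, for each clonotype, its cells (a count) and their fraction within its library. Only productive, full-length, high-confidence chains are in the tables. The authors later kept only receptors whose cells were T cells by transcriptome, which was not repeated, and the transcriptomes were not analysed here.

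Each cell was given its deposited clonotype, and its beta chain with most UMIs entered V, J and length counts. Alpha UMIs and reads were those of the TRAV11-TRAJ18 chain, and in other cells those of the alpha chain with most UMIs. Clones were also defined by beta CDR3 nucleotides and V name within a library. Other cells with an alpha chain in the same library were the comparison. Intervals at 95% are exact Clopper-Pearson for shares and Newcombe for differences. Where a count was 0, the limit in the text is 3 counts of the total, whereas figure bars show the exact Clopper-Pearson interval. These cover counting error only, and PCR reads are not independent molecules. Measures were compared with an exact two-sided sign-flip permutation over the 4 libraries, adjusted by Benjamini-Hochberg, whose smallest possible p is 0.125, so the threshold of 0.05 could not be reached. Tested on 1600 simulated cells, 3 of the measures (beta V, second alpha and clonal share) gave the differences the cells were made with. No doublet caller was run: cells with an extra beta chain, or with over 2 alpha chains, were kept and were left out in an alternative.

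Framework and CDR3 bases were matched to GRCm38 with GENCODE vM21, and a CDR3 base was counted as germline if it lay in an unbroken match from either end. Segments held by at least 3 cells, clones of at least 2 cells, alpha sequences in at least 2 libraries and beta chains shared with other cells were named by rule. Rarer beta segments and single second alpha chains were named after their values were seen. Members and lists were chosen with earlier results of these data known. Counting each clone once in the share, and taking only cells with both chains, were chosen after the data were seen. Tools were scipy 1.17.1, pandas 2.3.3 and numpy 2.4.6 in Python 3.11.15, and matplotlib 3.10.9 for figures.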

Additional observations from a re-analysis of the deposited data

Results flagged for a closer look

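In ATBI_aCD49d, 11 chains joined TRAV11 to TRAJ17, a rearrangement outside the rule. They were 1 CDR3 sequence in 1 deposited clonotype of 18 cells, at a median of 4 UMIs.

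The share of TRAV11-TRAJ18 cells was 1.23 percentage points higher under aCD49d Ab than under isotype in aged mice and lower in young mice (difference -1.47). The directions were opposite, both intervals included 0 among cells with an alpha chain, and the difference between ages was not tested.

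Recovery of a beta chain, as TRAV11-TRAJ18 cells minus other cells, was 5.08 points in YTBI_Isotype and 2.98 in ATBI_Isotype but -2.60 in YTBI_aCD49d and -2.88 in ATBI_aCD49d. The share with a second alpha chain moved the same way, at 2.89 and 6.25 points in the isotype libraries and -8.39 and -5.13 in the aCD49d libraries, in the same order of ages. Both rest on 4 cells each (4 without a beta chain, 4 with a second alpha chain), and the difference between treatments was not tested.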

How the results depend on the processing

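Of 102 alternative values, 92 kept their direction and their size or side of 0. Share, clonal, beta V and UMI differences kept their direction with at least 2 UMIs, without cells with extra chains and without the shared barcode. The clonal, beta V and UMI differences also kept it without each library. Restricting to both chains and counting each clone once moved the share to 6.34% in ATBI_Isotype and 8.24% in ATBI_aCD49d and left age differences of -4.58 and -0.850 points whose intervals included 0, whereas both chains without collapsing gave 3.12% and 4.15%. With all receptor cells as the denominator, the aged treatment difference was 1.51 points and its interval excluded 0. The difference in beta recovery turned to -0.109 points against all other cells, and ranged from -0.833 to 1.82 when libraries were left out. That in second alpha chains ranged from -3.54 to 1.34. The cause was not tested. With the joint name outside the list, the beta V difference was 21.4 points. TRAV11D or TRAV11N as further V names was not run, since no chain had them. No paired analysis was possible because the groups compared have 1 library each. The sign-flip tests pair TRAV11-TRAJ18 and other cells within a library. Depth limits the shares to steps of 0.107% to 0.461% per cell.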
